A study of Mus musculus with 6 samples.

Results

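Translation initiation and ribosomal protein genes were examined in 8 rows of the deposited table: Eif4g1, Eif4a2, Eif2b5, Eif1ad, Rpl24, Rpl35a, Fau and Igf2bp2. They were chosen by gene symbol, as genes of chromosome 16 or the start of chromosome 19, and all 8 had a row among the 15734 of the table. The mutant group was 3 mouse embryos homozygous for msp3, an allele of Baf155, with neural tube defects. Baf155, encoded by Smarcc1, belongs to the core of BAF, a complex that remodels chromatin. The wild-type group was 3 embryos homozygous for the normal allele, and both groups shared a mixed C57BL/6J and 129/SvImJ background. From each embryo, polyadenylated RNA was sequenced from cranial tissue, cut above the level of pharyngeal arches and otic vesicles, at embryonic day 9.5, at 21 to 23 somites per the series design and 19 to 21 per the sample labels.

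Translation starts when eIF2 brings the initiator methionyl-tRNA to the small ribosomal subunit and the cap-binding complex eIF4F recruits this subunit to the capped end of an mRNA. Ribosomal proteins are built, with ribosomal RNA, into the subunits that carry out elongation. Growing tissues such as the early neural tube make ribosomes at a high rate, so these genes are abundantly transcribed there. Of the members, Eif4g1 encodes the scaffold of eIF4F and Eif4a2 an RNA helicase of it. Eif2b5 encodes the catalytic subunit of eIF2B, the exchange factor that recharges eIF2 with GTP. Rpl24 and Rpl35a encode proteins of the large subunit, and Fau a ubiquitin-like protein fused to the small-subunit protein RPS30. Eif1ad carries a domain related to the initiation factor eIF1A, and Igf2bp2 encodes an mRNA-binding protein that is no core initiation factor.

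Many ribosomal protein mRNAs begin with a cytosine followed by a run of pyrimidines, the terminal oligopyrimidine motif, through which mTOR signalling controls their translation. The sequences around annotated starts are shown for the 3 ribosomal protein members, for Eif2b5 and for Eif4g1. Eif2b5 has a pyrimidine run across its start. Eif4g1 has a guanine at its start, followed by a short pyrimidine run. All 8 members matched a RefSeq promoter of build GRCm38.p6. Each line holds 40 bases before the annotated start and 20 from it on, on the plus strand, so that the start is base 41, and capitals mark the word CTCTTTC.
Rpl35a, chr16:33056442-33056501: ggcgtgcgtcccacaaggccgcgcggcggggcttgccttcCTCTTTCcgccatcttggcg
Fau, chr19:6057907-6057966: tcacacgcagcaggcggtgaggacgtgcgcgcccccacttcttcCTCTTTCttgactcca
Rpl24, chr16:55966235-55966294: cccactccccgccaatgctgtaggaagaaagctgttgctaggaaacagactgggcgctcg
Eif2b5, chr16:20498777-20498836: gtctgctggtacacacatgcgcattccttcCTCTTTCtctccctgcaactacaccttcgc
Eif4g1, chr16:20672687-20672746: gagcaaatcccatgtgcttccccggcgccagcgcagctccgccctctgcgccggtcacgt

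Rpl35a has several annotated starts, and the one shown is that at which the word begins at the first transcribed base. In Fau it begins at base 5 of the transcript. The window shown for Rpl24 does not hold it, and the annotated start of Rpl24 is a guanine. The word was picked after these windows were read. Within 25 bases to either side of a start, on the strand of the gene, it was found in 3 of 8 members, 8 of 66 cytosolic ribosomal protein genes (12.1%) and 219 of 27025 genes (0.81%). On either strand the counts were 3, 9 (13.6%) and 404 (1.49%), and no other word was searched. A match describes these letters and is not evidence of a binding site.

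The 6 libraries held between 46170743 and 82067578 reads in rows of the table. The labels describe separate embryos. The row named Smarcc1 had normalized read counts of 35870, 52563 and 35022 in mutants 1, 2 and 3, against 42915, 62563 and 50066 in wild types 1, 2 and 3, and the genotypes overlapped. Gene names of the table fit row levels on chromosome 16 and the start of chromosome 19 and often not elsewhere. Smarcc1 lies on chromosome 9, and whether its row fits its name was not tested, so no result is drawn from it. Mutant 2 stood apart from the other libraries on the first principal component (36.0% of the variance), where it lay at -44.1. Mutants 1 and 3 lay at -3.38 and -0.218, and wild types 1, 2 and 3 at 20.3, 12.3 and 15.0. The genotypes did not overlap on this component either. Results are therefore given with and without mutant 2. In the 2 stretches, 8 of 8 neural markers had rows, with a summed normalized read count of 27931 to 28973 in mutants and 26029 to 27533 in wild types, without overlap. Its members did not all move alike: Gap43 and Sst had log2 differences of 0.30 and 2.92 (limma, adjusted p = 0.331 for each). Hes1, Olig2, Olig1 and Ncam2 had 0.05, 0.38, 0.42 and 0.58, and only Robo1 and Robo2 were lower in mutants, at -0.14 and -0.09. The 4 visceral endoderm or liver markers summed to 116 to 140 in mutants and 126 to 140 in wild types, near 0 beside the neural sum. The endothelial markers Cldn5 and Erg summed to 1278 to 1865 in mutants and 2190 to 2557 in wild types, without overlap. Cldn5 carried this sum, with means of 1473 in mutants and 2297 in wild types, while Erg had 117 and 136 in the same order and overlapped. A further endothelial marker, Robo4, lies on chromosome 9 and its row was left out. Surface ectoderm markers (3 rows) summed to 1625 to 2680 and 1547 to 1993 in the same order. The neural crest marker Snai2 had 968 to 1142 in mutants and 901 to 1084 in wild types, and the pharyngeal marker Tbx1 1507 to 2074 and 2049 to 2945. Of 18 marker rows tested, 0 passed with limma or edgeR and 1, Cldn5, with DESeq2, which called 155 of 13329 rows in the whole table. At an unadjusted p below 0.05 (limma) there were 4 marker rows. Gap43 and Sst were higher in mutants, and Cldn5 and Tbx1 lower, with log2 differences of -0.65 and -0.53. Over all tested rows, 5.31% were higher and 5.52% lower at that unadjusted p. The part of the markers in the results was not tested.

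Some members have tissue-restricted genes among the 4 rows to either side, and the levels of the rows differ accordingly. Eif4a2 averaged 36053 ± 3145 normalized reads (SD, n = 6) and lies between genes of liver and fat. To its one side are Fetub, Hrg, Kng2 and Kng1, with 43.7, 37.7, 429.5 and 41.6. To its other side are Snord2, Snora81 and Rfc4, with 1343, 1728 and 7931, and past them Adipoq with 6.73. Igf2bp2, with 48920 ± 1790 (SD, n = 6), lies between Senp2 at 13496 and Tra2b at 32558, with the lens gene Crygs, the fourth row on that side, at 11.5. Eif1ad, with 11860 ± 823 (SD, n = 6), lies between Banf1 at 18330 and Sart1 at 16046, and past Banf1 are Cst6 at 8.07 and Catsper1, of sperm, at 6.12. On chromosome 19 the fit of names to levels ended between 6.54 and 6.91 Mb, past Eif1ad and Fau. There the row named Prdx5, a broadly expressed peroxiredoxin, had 30.6 ± 7.74 and that named Cox8a, of the respiratory chain, 21.3 ± 8.15 (SD, n = 6 each). Rows named Trmt112, Snhg1 and Eef1g lie in this later region, so their values are not read as levels of those genes.

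**Figure D1:**
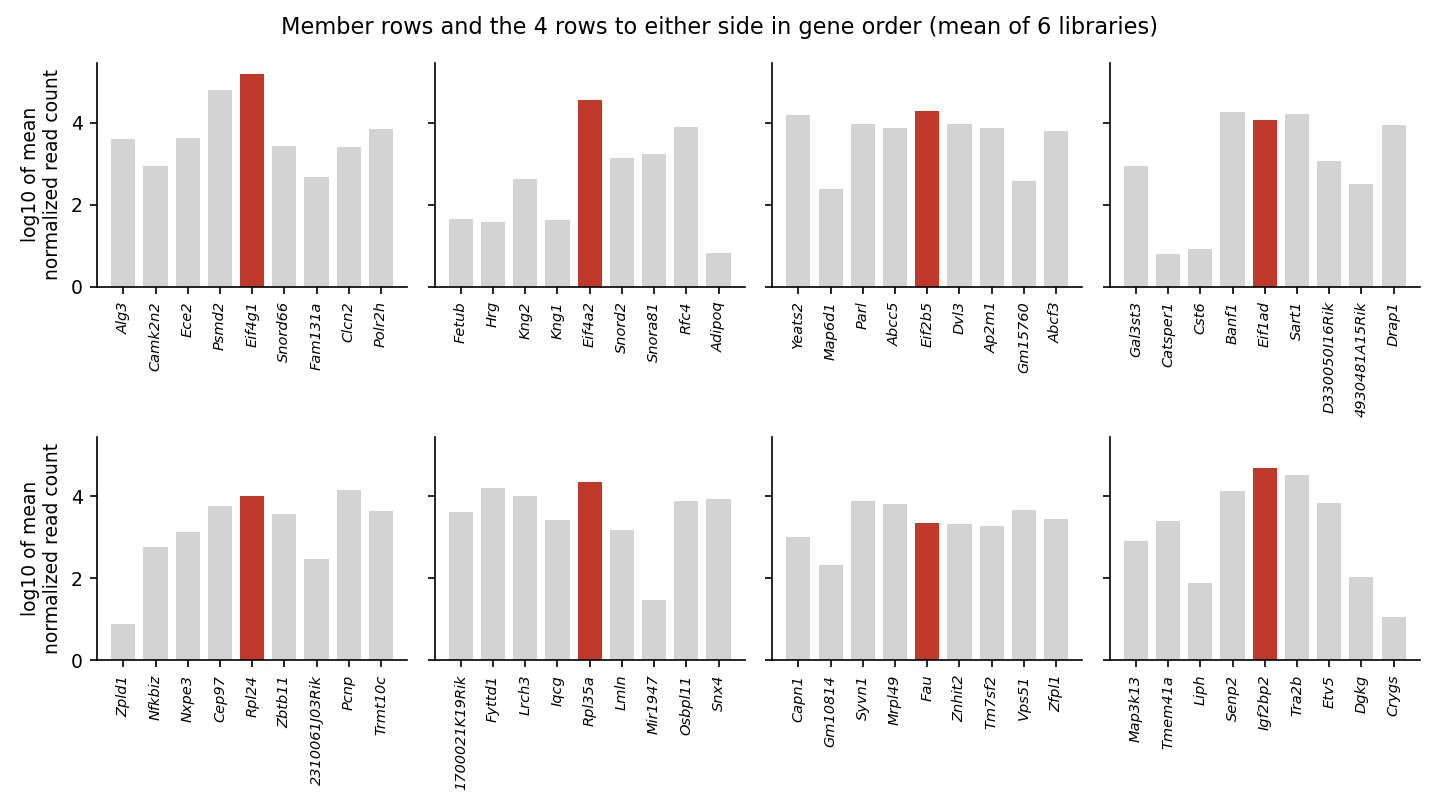
Mean normalized read count over the 6 libraries, as log10, of each member (red) and the 4 rows to either side in gene order (grey). Eif4a2 stands at 36053, with rows named for liver and fat genes at 6.73 to 429.5. Between Eif4a2 and Adipoq are Snord2, Snora81 and Rfc4 at 1343, 1728 and 7931.

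Per 1000 bases of transcript, the members spanned about an order of magnitude. Rpl35a was highest with 45105 ± 7483 normalized reads per 1000 bases (SD, n = 6), and Eif4g1 followed with 28997 ± 1937. Next came Eif4a2 at 16365 ± 1428, Rpl24 at 15147 ± 3012 and Igf2bp2 at 12547 ± 459, where each difference to the next was smaller than an SD of Rpl24. Eif2b5 had 7497 ± 369, and last came Eif1ad at 4640 ± 322 and Fau at 4300 ± 671, which differed by less than their spread. These levels rest on 1 transcript length per gene, from 508 bases for Fau to 5440 for Eif4g1.

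The levels of the ribosomal protein members also depend on how reads with several matching places were counted, which is not given in the sources used here. In Rpl24, 81.7% of 50-base words of the transcript also occurred in annotated transcripts of other genes, 10 genes in all, of which 8 are pseudogenes. For Rpl35a it was 52.3%, with 20 genes of which 19 are pseudogenes, and for Fau 76.9%, all in 1 pseudogene. Eif4a2 shared 20.1% with 4 genes and Eif1ad 15.1% with 1 gene. Eif4g1 shared 0.0371%, and Eif2b5 and Igf2bp2 shared no such word. Levels of Rpl24, Rpl35a and Fau are uncertain in this respect, and a comparison of genotypes within a row uses the same sequence in both.

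No member passed the test of mutant against wild type. With limma on log2(value + 1), 0 of 8 members had a Benjamini-Hochberg adjusted p below 0.05, where 3 of 13329 rows tested did, which is 0.0225%. With edgeR and DESeq2 on recovered reads the count was also 0 of 8. At an unadjusted p below 0.05, 1 of 8 members was lower in mutants and 0 were higher, where 5.52% of all tested rows were lower and 5.31% higher. The genotypes did not overlap in 1 of 8 members, with mutants lower, where this held for 10.4% of all tested rows, and mutants were higher without overlap in 8.69%. The median log2 difference of the members was 0.11, against -0.005 over all tested rows, and 0.003 against -0.009 without mutant 2. A count of 1 of 8 is too small to be set against the shares of all tested rows, and the part of mutant 2 in the median was not tested. In bulk RNA, fewer cells of a type and less RNA per cell cannot be told apart.

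**Figure D2:**
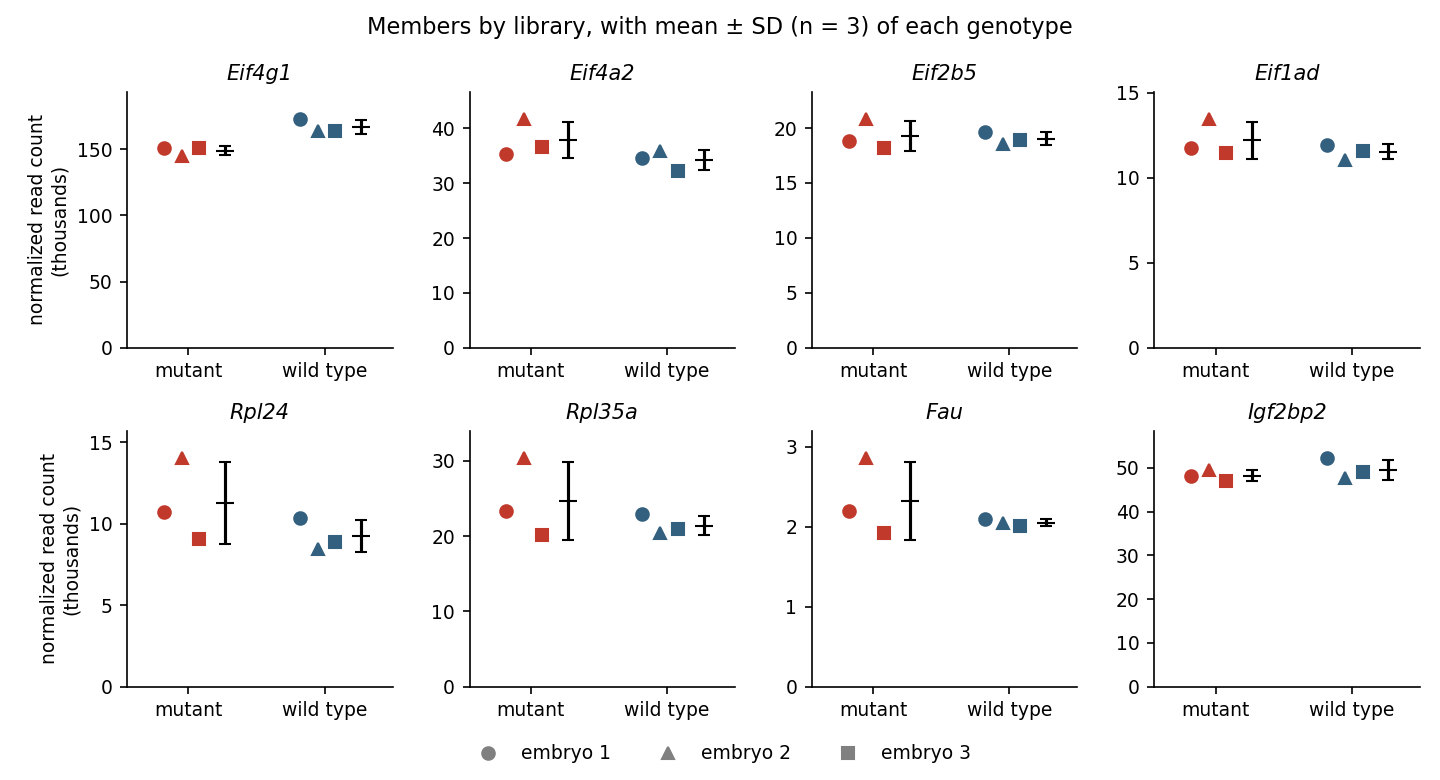
Normalized read count in units of 1000 (vertical axis, from 0) of each member in the 3 mutant and 3 wild-type libraries, with the mean ± SD of each genotype in black. Mutant 2 (red triangle) is highest of the 6 libraries in Rpl24, Rpl35a, Fau, Eif4a2, Eif2b5 and Eif1ad, and lowest in Eif4g1.

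Eif4g1, the scaffold that binds the cap-binding protein, the helicase and the small subunit's partner factor eIF3, had the smallest p of the members. Its normalized read count was 150736, 144948 and 150707 in mutants 1, 2 and 3, against 172604, 164006 and 163469 in wild types 1, 2 and 3. All 3 mutants lay below all 3 wild types. Mutants averaged 148797 ± 3333 and wild types 166693 ± 5126 (SD, n = 3 each), a level of 89.3% in mutants relative to wild type. The log2 difference was -0.16 with a standard error of 0.046 and a 95% interval of -0.27 to -0.06. It did not pass with limma (unadjusted p = 0.00658, adjusted p = 0.367), and the adjusted p ran from 0.136 to 0.747 over 17 alternatives. By exact permutation, two-sided, p was 0.1, the smallest that 3 against 3 allows. Without mutant 2 the log2 difference was -0.14, so the value does not rest on that library.

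Within the span of Eif4g1 lies the 58-base gene of the small nucleolar RNA Snord66, which is processed from an intron. The row named Snord66 had 2343, 2531 and 2491 in mutants 1, 2 and 3, against 2982, 2896 and 2772 in wild types 1, 2 and 3. The genotypes again did not overlap, with mutants lower, and the log2 difference of -0.23 did not pass (limma, adjusted p = 0.396). Reads of such a short nested gene and of its host cannot be told apart here. Snord66 is not a member and was singled out after its values were seen.

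Eif4a2, the helicase that unwinds leader sequences for eIF4F, ran the other way on average. It had 35346, 41660 and 36698 in mutants 1, 2 and 3, against 34536, 35865 and 32211 in wild types 1, 2 and 3. Mutant 2 was highest, and wild type 2 lay above mutant 1. Mutants averaged 37901 ± 3324 and wild types 34204 ± 1850 (SD, n = 3 each), a log2 difference of 0.15 with an interval of -0.02 to 0.32 that did not pass (limma, adjusted p = 0.492). Without mutant 2 it was 0.08. The small nucleolar RNA genes Snord2 and Snora81 lie within Eif4a2, and their rows had log2 differences of -0.02 (adjusted p = 0.937) and 0.06 (adjusted p = 0.786) by limma.

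The ratio of Eif4g1 to Eif4a2 within a library does not depend on the library's normalization factor. It was 4.26, 3.48 and 4.11 in mutants 1, 2 and 3, against 4.998, 4.57 and 5.07 in wild types 1, 2 and 3. Each mutant lay below each wild type. The log2 difference of the ratio was -0.31 (exact permutation test, two-sided, p = 0.1, the smallest that 3 against 3 allows) and -0.22 without mutant 2. This ratio was formed after the values were seen, and no adjustment for that choice was made. It sets a transcript of 5440 bases against one of 2203 bases, and libraries differed by transcript length. In rows over 4000 bases, the median log2 deviation from the mean over libraries was 0.009, -0.08 and 0.02 in mutants 1, 2 and 3. In wild types 1, 2 and 3 it was 0.04, 0.03 and 0.007. For rows of 2000 to 4000 bases it was 0.005, 0.07 and -0.03, against 0.01, -0.02 and -0.003, in the same order. The part of length in the ratio was not tested.

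Eif2b5, the guanine nucleotide exchange subunit, had the smallest difference of the members with all 6 libraries, though not without mutant 2. It had 18837, 20786 and 18141 in mutants 1, 2 and 3, against 19641, 18539 and 18937 in wild types 1, 2 and 3, so that mutants held both the highest and the lowest value. The log2 difference was 0.01 with an interval of -0.14 to 0.16 (limma, adjusted p = 0.939), and its sign turned without mutant 2, to -0.04. No direction is read for it.

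Eif1ad had 11723, 13428 and 11423 in mutants 1, 2 and 3, against 11936, 11062 and 11590 in wild types 1, 2 and 3. Mutant 2 was the highest library and the remaining mutants lay among the wild types. The log2 difference was 0.08 (limma, adjusted p = 0.692) and 0.006 without mutant 2. Its gene overlaps Banf1 on the opposite strand by 64 bases, and whether counting used strand is not given.

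Igf2bp2, which binds and stabilises mRNAs in embryonic tissue, was even across libraries. It had 48192, 49427 and 47081 in mutants 1, 2 and 3, against 52149, 47730 and 48943 in wild types 1, 2 and 3, with overlapping values. Mutants averaged 48234 ± 1173 and wild types 49607 ± 2283 (SD, n = 3 each). The log2 difference was -0.04 with an interval of -0.16 to 0.08 (limma, adjusted p = 0.775), which in fold terms is 0.894 to 1.06.

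**Figure D3:**
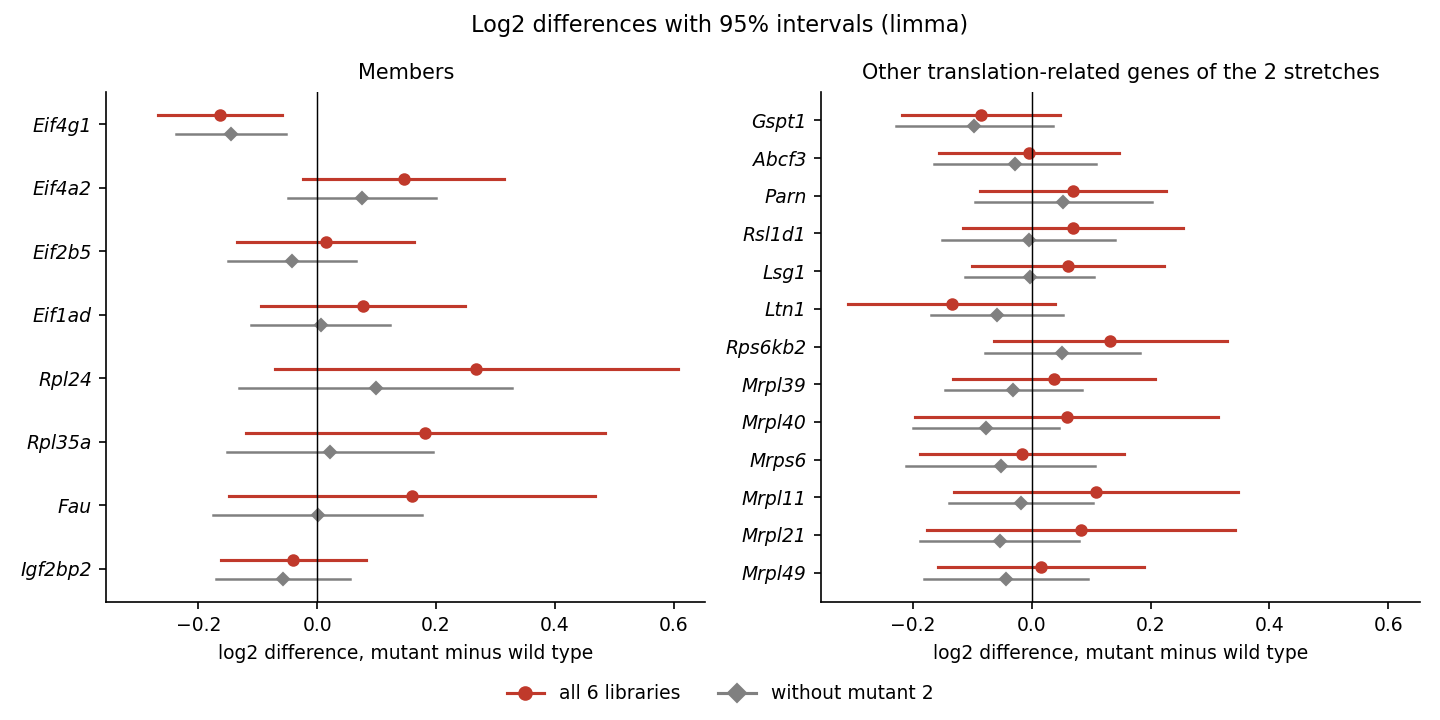
Log2 difference, mutant minus wild type, with 95% intervals from limma, for the members and for 13 further translation-related genes from chromosome 16 or the start of chromosome 19 (up to 6.6 Mb). Red points use all 6 libraries and grey diamonds leave out mutant 2; for Rpl24 the value is 0.27 with it and 0.10 without it.

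The 3 ribosomal protein members shared one pattern, in which mutant 2 was high and the remaining mutants lay among or near the wild types. Rpl24 had 10714, 14017 and 9076 in mutants 1, 2 and 3, against 10354, 8482 and 8885 in wild types 1, 2 and 3. The genotypes overlapped, and mutant 2 was 1.42-fold the mean of mutants 1 and 3. Its log2 difference was 0.27 with an interval of -0.07 to 0.61 (limma, adjusted p = 0.522). Without mutant 2 it was 0.10, with an interval of -0.13 to 0.33.

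Rpl35a had 23352, 30312 and 20158 in mutants 1, 2 and 3, against 22879, 20344 and 20977 in wild types 1, 2 and 3. Mutant 3 was the lowest of the 6 libraries and mutant 2 the highest. The log2 difference was 0.18 with an interval of -0.12 to 0.48 (limma, adjusted p = 0.599) and 0.02 without mutant 2. The gene overlaps Iqcg, which lies on the opposite strand, by 693 bases in the reference. The row named Iqcg had 2589 ± 262 normalized reads (SD, n = 6).

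Fau had 2192, 2855 and 1916 in mutants 1, 2 and 3, against 2094, 2043 and 2007 in wild types 1, 2 and 3. Wild types differed little among themselves, at 2048 ± 43.6, while mutants had 2321 ± 482 (SD, n = 3 each). The log2 difference was 0.16 with an interval of -0.15 to 0.47 (limma, adjusted p = 0.646). Without mutant 2 it was 0.001, with an interval of -0.18 to 0.18.

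Set against each other, the ribosomal protein members kept similar proportions in the mutants and varied more among the wild types. The ratio of Fau to Rpl35a was 0.0939, 0.0942 and 0.0950 in mutants 1, 2 and 3, against 0.0915, 0.1004 and 0.0957 in wild types 1, 2 and 3. That of Rpl24 to Rpl35a was 0.459, 0.462 and 0.450 in mutants, against 0.453, 0.417 and 0.424 in wild types. The genotypes overlapped in both ratios, with log2 differences of -0.02 (exact permutation test, two-sided, p = 0.7) and 0.09 (p = 0.2, same exact test). Mutant 2, highest in each of these genes, was not apart from the other mutants in either ratio.

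The excess of mutant 2 was related to transcript length. Among 558 protein-coding rows in both stretches, with chromosome 19 taken up to 6.6 Mb, the log2 difference of mutant 2 from the mean of mutants 1 and 3 had a median of 0.32 for the 40 rows with transcripts of up to 1000 bases. It was 0.19 for 142 rows of 1000 to 2000 bases, 0.07 for 234 rows of 2000 to 4000 bases and -0.09 for 142 longer rows. Mutant 2 was the higher in 32 of the 40 shortest rows and in 41 of the 142 longest. For the members it was 0.51 for Rpl24 (677 bases), 0.48 for both Rpl35a (510 bases) and Fau (508 bases), and -0.06 for Eif4g1 (5440 bases). Eif4a2, Eif1ad and Eif2b5, of 2203, 2556 and 2554 bases, had 0.21, 0.21 and 0.17, above the median of their class, and Igf2bp2 (3899 bases) had 0.05. Single rows departed from the trend: Mrps6 had 0.11 at 846 bases, Mrpl11 0.38 at 3045 bases and Rps6kb2 0.24 at 4586 bases. The quartiles of the shortest class were 0.098 and 0.41, so the 3 ribosomal protein members lay above the upper one. In the shortest class the other 5 libraries lay between -0.08 and 0.03 of the 6-library mean in the median, and mutant 2 at 0.29. The median log2 difference of mutant from wild type in that class was 0.14 with all libraries and 0.06 without mutant 2. For rows of 1000 to 2000, 2000 to 4000 and over 4000 bases it was 0.05, 0.01 and -0.05 with all libraries. Without mutant 2 it was -0.01, -0.02 and -0.03 in the same order. Eif4g1 belongs to the longest class. What made mutant 2 differ by length was not tested, and neither was its part in each member's value.

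**Figure D4:**
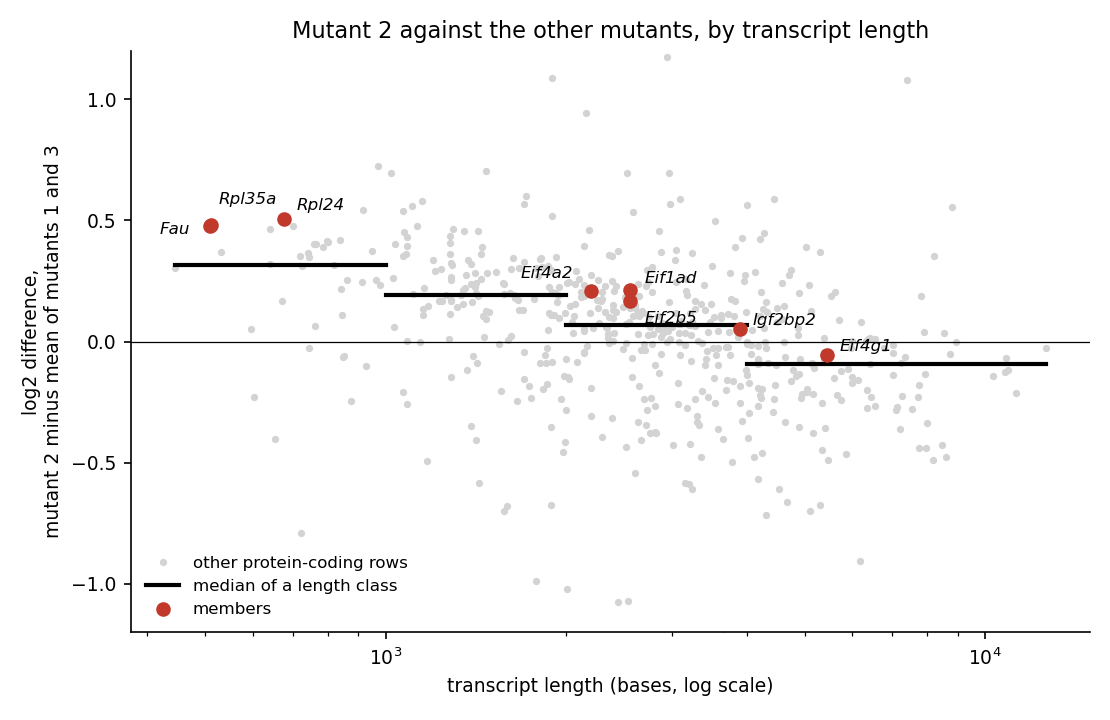
Log2 difference of mutant 2 from the mean of mutants 1 and 3 (vertical axis) against transcript length in bases (log scale) for 558 protein-coding rows, of which 6 lie more than 1.2 from 0 and outside the axis. Black bars are medians of the 4 length classes, from 0.32 for the shortest to -0.09 for the longest, and members are in red.

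The library pattern of the members was shared with other rows of the same stretches. Over the 6 libraries and among 720 tested rows of chromosome 16 and the start of chromosome 19 up to 10 Mb, Rpl24 was most like Nit2, an omega-amidase, with a Pearson's r of 0.999, followed by Fam162a at 0.993 and Rpl35a at 0.984. Rpl35a was most like Nit2 and Dgcr6, both at 0.99, and the row named Ahnak, also at 0.99. Fau was most like Pigx at 0.995 and the rows named Mta2 and Mark2, both at 0.994. Ahnak, Mta2 and Mark2 lie past 6.6 Mb of chromosome 19, so these rows are not read as those genes. Eif1ad was most like Slc25a1 (0.993), Rad9 (0.988) and Nubp1 (0.987), and Eif2b5 like Cdca5 (0.99), Tra2b (0.976) and Mrpl39 (0.973). The rows most like Eif4g1 were Lrp5 (0.972), Sipa1 (0.961) and Lpp (0.958), those for Eif4a2 were Cluap1 (0.978), Abhd10 (0.971) and Pcp4 (0.97), and those for Igf2bp2 were Igsf5 (0.95), Pkp2 (0.94) and Ptplb (0.937). These values describe 6 libraries that all rows share, with mutant 2 apart, and carry no test.

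Other translation-related genes of the stretches gave the same count of calls. Of 16 such rows, 15 were tested and 0 passed with limma, edgeR or DESeq2, with 10 higher and 5 lower in mutants and 0 at an unadjusted p below 0.05 (limma). Leaving out the later part of chromosome 19, where names fit poorly, 13 rows remained, with 9 higher and 4 lower, a median log2 difference of 0.06 and of -0.03 without mutant 2. Of all 659 tested rows of the stretches so cut, 357 were higher and 302 lower. Gspt1, the GTPase that releases finished chains with the termination factor eRF1, had 51740, 53266 and 52196 in mutants 1, 2 and 3, against 59927, 53365 and 53688 in wild types 1, 2 and 3. The genotypes did not overlap, though mutant 2 and wild type 2 were nearly equal, and the log2 difference was -0.09 (limma, adjusted p = 0.581).

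For Ltn1, the ubiquitin ligase that marks chains stalled on ribosomes, the log2 difference was -0.13 (limma, adjusted p = 0.53) and -0.06 without mutant 2. Rps6kb2, a kinase of the small-subunit protein S6, had 2699, 3188 and 2691 in mutants 1, 2 and 3, against 2590, 2634 and 2577 in wild types 1, 2 and 3. The genotypes did not overlap, with mutants higher, and the log2 difference was 0.13 (limma, adjusted p = 0.562) and 0.05 without mutant 2. The ribosome biogenesis genes Rsl1d1 and Lsg1 had log2 differences of 0.07 and 0.06, and of -0.005 and -0.004 without mutant 2. The ABC protein Abcf3 was at -0.004 and the poly(A) ribonuclease Parn at 0.07.

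Mitochondrial ribosomal proteins followed the cytosolic ones in mutant 2 to differing degrees. Of 6 rows, 5 were higher and 1 lower in mutants, 0 passed with limma, edgeR or DESeq2, 0 had an unadjusted p below 0.05 (limma), and the median log2 difference was 0.05 with all libraries and -0.05 without mutant 2. Mutant 2 was 1.33-fold the mean of the other mutants for Mrpl40 and Mrpl21, 1.30-fold for Mrpl11, 1.15-fold for Mrpl39, 1.13-fold for Mrpl49 and 1.08-fold for Mrps6. Mrpl49 lies head to head with Fau, with 191 bases between them, and its log2 difference was 0.02 (limma, adjusted p = 0.945).

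Rows that bear names of such genes elsewhere in the genome could not be read as those genes. The 45 rows there named for cytosolic ribosomal proteins had a median level of 102, against 10255 for the 3 in the stretches, and 7 of the 37 tested had a mean of at least 1000. Of these 37 rows, 17 were higher and 20 lower in mutants. Of 31 tested rows named for initiation factors, 15 were higher and 16 lower, and of 45 named for mitochondrial ribosomal proteins 19 and 26. Rows named for elongation and termination factors (9 tested) were 7 higher and 2 lower, and those for regulators of initiation (7 tested) 2 and 5. Over these 5 lists 0 rows passed with limma or edgeR, and 1 row named for a cytosolic ribosomal protein passed with DESeq2. At an unadjusted p below 0.05 (limma) there were 4 rows named for cytosolic ribosomal proteins, 1 for initiation factors, 2 for regulators and 0 in the other lists. At that unadjusted p, 5.31% of all tested rows were higher and 5.52% lower, and DESeq2 called 155 of 13329 rows.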

How the data were processed

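The members and gene lists were chosen with earlier results of these data known. Per the file headers, the authors deposited a normalized signal for each gene in each library. The submitters' processing notes name CASAVA 1.7, bedtools and mm9 without their roles. Counting rule, strand use and annotation are not stated there. Per the labels' protocols, libraries were made with a TruSeq RNA kit. Each value was a whole multiple of 1 step per library (100% of values, tolerance 0.001 reads), so whole reads were recovered for edgeR 4.0.16 and DESeq2 1.42.0, which were run as alternatives.

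The main test was limma 3.58.1 (R 4.3.3) with a mean-variance trend on log2(value + 1), two-sided, over the 13329 rows with a mean of at least 10, called at a Benjamini-Hochberg adjusted p below 0.05. Log2 differences refer to log2(value + 1), except for ratios, formed from the values alone, and for alternatives that used reads or another added constant. Normalized read counts are the deposited values. The limma step was tested on simulated data with seeded changes. Rows were placed by symbol (14324) or older symbol (1288) on GRCm38, and 122 were not matched. No coordinates were converted. Transcript lengths are those of GENCODE vM21, 1 principal transcript per gene, of median length. Another 12 columns without headers hold a few values each and were not used. Genes named are all members, the listed genes of both stretches and, for each member, the 3 tested rows most like it. Markers come from a list of cell type markers. Neighbouring and overlapping rows, and rows used to judge the fit of names on chromosome 19, were named besides and chosen after their values were seen. Between replicates, chi-square over its degrees of freedom was 11.3 to 90.5, above counting error. Python 3.11.15, pandas 2.3.3, numpy 2.4.6, scipy 1.17.1 and matplotlib 3.10.9 were used.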

Additional observations from a re-analysis of the deposited data

How the results depend on the processing

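Under each of 17 alternatives 0 of 8 members were called, and 133 of 136 recomputed member differences kept their sign. The 3 that turned were all of Eif2b5 (0.01 with all libraries), at -0.00616 with array quality weights, -0.0421 without mutant 2 and -0.00472 without wild type 2. Over single libraries left out, Eif2b5 ran from -0.0421 to 0.056. Over all alternatives the log2 difference ran from -0.18 to -0.14 for Eif4g1, from 0.10 to 0.41 for Rpl24, from 0.02 to 0.32 for Rpl35a and from 0.001 to 0.29 for Fau, with the lowest without mutant 2 and the highest without mutant 3 for the last 3.

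The count of called rows in the whole table was less stable: 3 as reported, 5 with quantile normalization, 5 with equal medians, 60 with array quality weights, 155 with DESeq2, 5 when called below 0.1, 2 with edgeR, 0 without a trend, and 0 to 14 without single libraries. The cause was not tested. With the replicate block 3 rows were called, 2 of them shared, and 0 members; deviations of same-numbered libraries correlated at -0.045, -0.0003 and 0.059, so the numbers were not treated as pairs.

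The log2 difference in the Eif4g1 to Eif4a2 ratio, examined after seeing the data, ran from -0.37 to -0.22 without single libraries, and the number of translation-related rows lower in mutants was 5 with the first 10 Mb of chromosome 19 and 4 with 6.6 Mb.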
